A study of Mus musculus with 13 samples.

Results

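Mamdc2, Etl4, Asb11, Corin, Tcap and Ppm1j are 6 genes best known outside microglia that were much less abundant in brain myeloid cells of amyloid-bearing mice lacking Trem2. They were picked by name from 52636 listed genes because of that reduction, so their difference between the genotypes is given below as a description, without a test. All 6 were among the 17086 genes with enough reads to be fitted. The cells were live CD11b+ CD45+ Ly6g- Ccr2- cells sorted from cortex plus hippocampus of mice aged 14 to 15 months, and RNA-Seq was run on each mouse separately. Every mouse carried the PS2APP transgene, which encodes mutant human presenilin 2 and amyloid precursor protein and leads to β-amyloid plaques. PS2APP;Trem2wt mice (labelled PS2APP) kept Trem2, with 7 mice of which 5 were female and 2 male. PS2APP;Trem2ko mice (labelled PS2APP;Trem2KO) carried the Trem2tm1(KOMP)Vlcg null allele, with 6 mice of which 5 were female and 1 male. The null allele came from C57BL/6N and the transgene from C57BL/6J, and mice without the transgene were not analysed here.

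Trem2 is a surface receptor of microglia that binds lipids and lipoproteins and signals through the adaptor Tyrobp. Microglia around plaques take on a disease-associated state, with raised lysosomal, lipid-handling and secreted gene products, and entry into that state is known to depend on Trem2. The 6 genes belong to unrelated families. Mamdc2 encodes a secreted protein built of MAM domains, and Corin a transmembrane serine protease that converts the pro-form of atrial natriuretic peptide in heart. Asb11 encodes an ankyrin repeat and SOCS box protein, the substrate-binding part of a cullin-RING ubiquitin ligase, and Ppm1j a protein phosphatase of the PP2C type. Tcap encodes telethonin, the titin cap protein of the muscle Z-disc, and Etl4 (sickle tail) a coiled-coil protein known from the notochord and the intervertebral discs.

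The libraries held 26120961 to 114857155 counted reads in PS2APP;Trem2wt mice and 41567025 to 120569609 in PS2APP;Trem2ko mice. Trem2 itself stood at 818 to 1244 nRPKM in the former and 0.393 to 2.29 nRPKM in the latter, where nRPKM is the read count per length of the gene at a depth equalised by size factors. The sorted cells carried microglial RNA: 11 microglia markers summed to 8971 to 11582 nRPKM in PS2APP;Trem2wt mice and 9405 to 10755 nRPKM in PS2APP;Trem2ko mice. PS2APP;Trem2wt replicate 2 stood apart, with the lowest depth of the 13 libraries and the highest summed neutrophil, monocyte, endothelial, mural and fibroblast markers.

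Mamdc2 was by far the most abundant of the 6 genes. It lies on the minus strand of chr19:23302609-23448442 (GRCm38, GENCODE M21, ENSMUSG00000033207), with 14 exons in its longest transcript. In PS2APP;Trem2wt mice it ranged from 14.8 to 40.5 nRPKM with a median of 18.2, and in PS2APP;Trem2ko mice from 0.305 to 1.55 nRPKM with a median of 0.746. The lowest PS2APP;Trem2wt mouse was thus 9.55 times above the highest PS2APP;Trem2ko mouse. Means were 20.8 ± 8.96 (SD, n = 7) and 0.778 ± 0.455 nRPKM (SD, n = 6), and the edgeR log2 fold change was -4.77 (SE 0.38). PS2APP;Trem2wt replicate 3 was high, with 40.5 nRPKM against 20.6 in the next mouse, and without it the PS2APP;Trem2wt mean was 17.5 ± 2.38 nRPKM (SD, n = 6). In these pooled cells, fewer cells of a type and less RNA per cell cannot be told apart, which holds for every difference given here.

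Corin was the scarcest of the 6 genes in PS2APP;Trem2wt cells by nRPKM, though not by reads. It lies on the minus strand of chr5:72300025-72504473 (ENSMUSG00000005220) with 22 exons. PS2APP;Trem2wt mice ranged from 0.0841 to 0.677 nRPKM with a median of 0.233, which is 16 to 347 reads a mouse. PS2APP;Trem2ko mice ranged from 0 to 0.0610 nRPKM with a median of 0.0129, and the highest of them held 54 of the 73 reads found in that genotype. The genotypes did not overlap, but the gap was narrow, the lowest PS2APP;Trem2wt mouse lying 1.38 times above the highest PS2APP;Trem2ko mouse. Means were 0.278 ± 0.209 and 0.0181 ± 0.0221 nRPKM. The log2 fold change was -3.84 (SE 0.73) and became -4.90 without PS2APP;Trem2ko replicate 1.

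Asb11 was read in every PS2APP;Trem2wt mouse and in 1 of 6 PS2APP;Trem2ko mice. The gene lies on the plus strand of chrX:164436994-164459170 (ENSMUSG00000031382) with 3 exons in its longest transcript. In PS2APP;Trem2wt mice it ranged from 0.179 to 1.68 nRPKM with a median of 0.515, from 11 to 279 reads. In PS2APP;Trem2ko mice 5 libraries held 0 reads and replicate 2 held 14, or 0.0966 nRPKM. Means were 0.729 ± 0.536 and 0.0161 ± 0.0395 nRPKM, and the log2 fold change of -5.48 (SE 1.01) depended on those 14 reads. Without that mouse every remaining PS2APP;Trem2ko library was at 0, the fitted value of -9.66 then being no bound. A floor of 3 counts was set in each of those 5 libraries, beside the 14 reads of replicate 2. By means, Asb11 was then at least 20.5-fold lower over all 6 PS2APP;Trem2ko mice, and at least 32.3-fold lower over the 5 alone. These bounds cover counting error in PS2APP;Trem2ko mice only, not the spread among PS2APP;Trem2wt mice. The lowest PS2APP;Trem2wt mouse lay 1.85 times above PS2APP;Trem2ko replicate 2.

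Tcap and Etl4 were intermediate. Tcap, on the plus strand of chr11:98383811-98384953 (ENSMUSG00000007877) and only 1143 bases long, ranged from 1.82 to 7.47 nRPKM in PS2APP;Trem2wt mice with a median of 3.85. In PS2APP;Trem2ko mice it ranged from 0.176 to 1.06 nRPKM with a median of 0.408, so that the genotypes did not overlap. Means were 4.06 ± 2.04 and 0.473 ± 0.319 nRPKM, a log2 fold change of -3.08 (SE 0.44). Its highest mouse was PS2APP;Trem2wt replicate 2, the library rich in markers of other cells, and without it the log2 fold change was -2.87. Etl4 spans 900934 bases on the plus strand of chr2:19909780-20810713 (ENSMUSG00000036617), with 20 annotated transcripts. It was the most even of the genes in which the genotypes did not overlap, at 0.703 to 1.61 nRPKM (median 1.07) in PS2APP;Trem2wt mice and 0.0937 to 0.221 nRPKM (median 0.143) in PS2APP;Trem2ko mice. Means were 1.09 ± 0.274 and 0.153 ± 0.0499 nRPKM, a log2 fold change of -2.84 (SE 0.22).

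Ppm1j showed the smallest difference of the 6 and was the single gene whose genotypes overlapped. It lies on the plus strand of chr3:104781056-104786018 (ENSMUSG00000002228). PS2APP;Trem2wt mice ranged from 0.481 to 1.08 nRPKM with a median of 0.669, and PS2APP;Trem2ko mice from 0.155 to 0.509 nRPKM with a median of 0.202. Only PS2APP;Trem2ko replicate 2 reached into the PS2APP;Trem2wt range, above the male replicate 7, and the other 5 lay below every PS2APP;Trem2wt mouse. Means were 0.708 ± 0.185 and 0.269 ± 0.145 nRPKM, a log2 fold change of -1.40 (SE 0.32). The start of Ppm1j overlaps Fam19a3 on the other strand. Whether reads were counted by strand is not given in the sources used here, so reads of the overlap cannot be assigned. Ppm1j had 42 to 192 reads in PS2APP;Trem2wt mice and 16 to 79 in PS2APP;Trem2ko mice, while Fam19a3 held up to 62 and 149 reads.

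**Figure D1:**
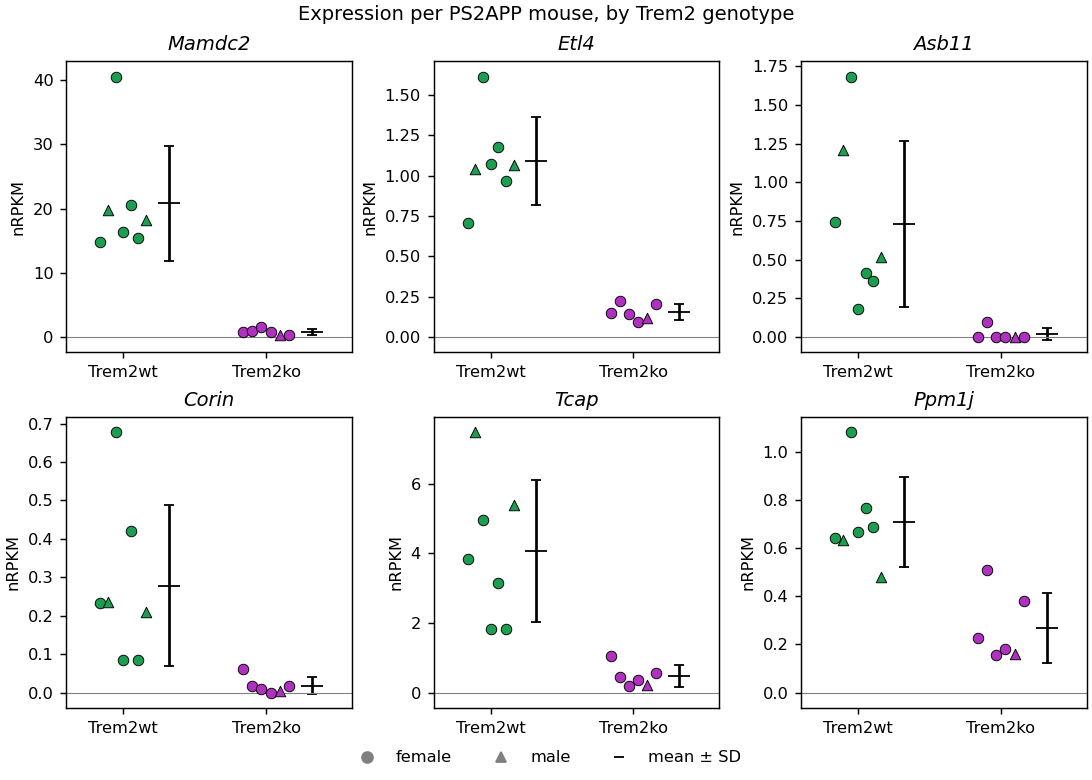
Expression of each gene in every mouse, in nRPKM on a linear axis, by Trem2 genotype (7 PS2APP;Trem2wt and 6 PS2APP;Trem2ko mice). Circles are females, triangles males, and the bar beside each group is the mean ± SD. The groups are apart in 5 of the 6 panels, and in the Ppm1j panel 1 PS2APP;Trem2ko mouse at 0.509 nRPKM lies above the lowest PS2APP;Trem2wt mouse at 0.481 nRPKM.

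All 6 log2 fold changes were below 0, as were 49.3% of those of all tested genes, and the genotypes did not overlap in 5 of the 6 genes. Among all tested genes, 1.22% had every PS2APP;Trem2ko mouse below every PS2APP;Trem2wt mouse, but since the genes were chosen for this difference nothing is read from their count. Ranked from the most negative log2 fold change among 17086 genes, Asb11 was at 5, Mamdc2 at 13, Corin at 18, Tcap at 31, Etl4 at 36 and Ppm1j at 167. The size of the fold change did not follow abundance, as Asb11 and Corin with few reads and Mamdc2 with at least 2093 reads in each PS2APP;Trem2wt mouse all stood in the first 18.

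Levels per length were ordered in PS2APP;Trem2wt mice. This order depends on the length by which each gene's reads were divided. That length is not given in the sources used here, and Etl4 has 20 annotated transcripts. By reads alone Etl4, with 5859 over the 7 mice, stood above Tcap with 2084. Mamdc2 was above Tcap in 7 of 7 mice (5.12-fold by means), and Tcap above Etl4 in 7 of 7 (3.72-fold), with ranges that did not overlap. Asb11 was not separated from its neighbours in this order beyond the spread, since Etl4 exceeded Asb11 in 4 of 7 mice and Asb11 exceeded Ppm1j in 4 of 7. Etl4 was above Ppm1j in 7 of 7 mice and Ppm1j above Corin in 7 of 7, although the ranges of both pairs overlapped. In PS2APP;Trem2ko mice Asb11 and Etl4 were each below Ppm1j in 6 of 6, and Mamdc2 was above Tcap in only 4 of 6.

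The 6 genes differed in how evenly they were expressed among PS2APP;Trem2wt mice. Corin (coefficient of variation 75.4%), Asb11 (73.6%) and Tcap (50.3%) were uneven, with 8.05-, 9.40- and 4.10-fold between the lowest and the highest mouse. Mamdc2 (43.0%), Ppm1j (26.2%) and Etl4 (25.1%) varied 2.74-, 2.25- and 2.29-fold. On the log2 CPM scale, 7.26% of all tested genes had a larger SD among these mice than Corin and 7.51% a larger one than Asb11, against 40.2% for Ppm1j. The order did not follow the number of reads, since Ppm1j had 595 over the 7 mice, Asb11 624 and Corin 773.

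**Figure D2:**
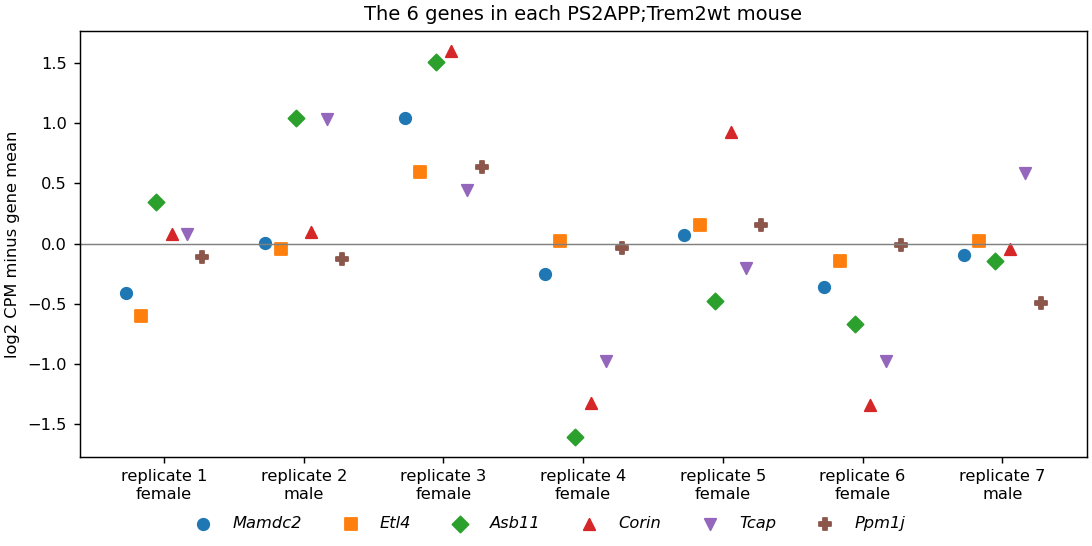
Each gene in each of the 7 PS2APP;Trem2wt mice, as log2 CPM minus that gene's mean over the 7 mice, so that 0 is the gene's own mean. All 6 genes are above 0 in replicate 3, led by Corin at 1.605 and Asb11 at 1.51, while Asb11, Corin and Tcap lie lowest in replicates 4 and 6.

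One mouse carried the highest level of most of the genes. PS2APP;Trem2wt replicate 3, a female with 79883820 counted reads, was the highest of its genotype for 5 of the 6 genes, with Tcap the exception. The same mouse had the highest summed level of 16 disease-associated microglia genes (6017 nRPKM, against a lowest PS2APP;Trem2wt value of 3190) and the highest summed astrocyte (37.3 nRPKM) and oligodendrocyte markers (73.8 nRPKM) of all 13 mice. The part of these in the levels of the 6 genes was not tested. Leaving this mouse out moved no log2 fold change of the 6 genes by more than a factor of 1.5, with -4.52 for Mamdc2, -2.72 for Etl4, -5.11 for Asb11, -3.45 for Corin, -3.03 for Tcap and -1.27 for Ppm1j.

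Whether the 6 genes varied together within a genotype was examined by correlation, a measure that their selection between genotypes did not use. Of 33 relations (15 pairs in PS2APP;Trem2wt mice, 6 pairs of the 4 better-read genes in PS2APP;Trem2ko mice, and each gene against the disease-associated genes and against depth in PS2APP;Trem2wt mice), 8 had an unadjusted exact permutation p under 0.05 and 0 passed after Benjamini-Hochberg adjustment. The permutation test was two-sided, and the smallest p it allows is 0.000397 for 7 mice and 0.00278 for 6. Among PS2APP;Trem2wt mice 14 of 15 pairs had a positive Pearson r, with a median of 0.637, but without replicate 3 the median was 0.087, so the common rise rested on that mouse. The 6 pairs in PS2APP;Trem2ko mice had a median r of 0.157.

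Mamdc2 and Etl4 gave the highest r of the pairs in PS2APP;Trem2wt mice. Pearson's r was 0.875 (exact permutation p = 0.00476, adjusted p = 0.0786, n = 7) and Spearman's rho 0.857 (exact permutation p = 0.0238, adjusted p = 0.262), and without the 2 mice farthest from the median of Mamdc2 r was 0.730. Asb11 and Tcap had r = 0.815 (exact permutation p = 0.0296, adjusted p = 0.139, n = 7) and rho = 0.821 (exact permutation p = 0.0341, adjusted p = 0.282), with r = 0.829 when the farthest 2 mice were left out. Mamdc2 and Corin had r = 0.789 (exact permutation p = 0.0121, adjusted p = 0.133, n = 7) and rho = 0.786 (exact permutation p = 0.0480, adjusted p = 0.317). Without the farthest 2 mice r was 0.964. Asb11 and Corin had r = 0.746 (exact permutation p = 0.0476, adjusted p = 0.196, n = 7) and rho = 0.750 (exact permutation p = 0.0663, adjusted p = 0.364). Without the farthest 2 mice r was 0.260. Etl4 and Ppm1j had the highest r among PS2APP;Trem2ko mice, 0.883 (exact permutation p = 0.0264, adjusted p = 0.139, n = 6), with rho 0.771 (exact permutation p = 0.103, adjusted p = 0.402) and r = 0.934 without the farthest 2 mice.

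Against the mean log2 CPM of the 16 disease-associated genes, Corin gave r = 0.897 (exact permutation p = 0.00337, adjusted p = 0.0786, n = 7) and rho = 0.893 (exact permutation p = 0.0123, adjusted p = 0.203), and r stayed at 0.889 without the 2 farthest mice. Asb11 gave r = 0.830 (exact permutation p = 0.0165, adjusted p = 0.134, n = 7) and rho = 0.929 (exact permutation p = 0.00675, adjusted p = 0.203), with r = 0.860 without them. Mamdc2 had r = 0.918 (exact permutation p = 0.0202, adjusted p = 0.134, n = 7) but rho = 0.571 (exact permutation p = 0.200, adjusted p = 0.550), and r fell to 0.317 without the 2 farthest mice, so its relation rested on those mice. Tcap gave r = 0.576 (exact permutation p = 0.180, adjusted p = 0.372, n = 7) and rho = 0.679 (exact permutation p = 0.110, adjusted p = 0.402), with r = 0.724 without them. Etl4 gave r = 0.616 (exact permutation p = 0.155, adjusted p = 0.365, n = 7) and rho = 0.286 (exact permutation p = 0.556, adjusted p = 0.775), and Ppm1j r = 0.711 (exact permutation p = 0.113, adjusted p = 0.310, n = 7) and rho = 0.143 (exact permutation p = 0.783, adjusted p = 0.883). Without the 2 farthest mice r was -0.275 for Etl4 and 0.0676 for Ppm1j, so these also rested on those mice. Against log2 depth, r for the 6 genes ran from 0.0076 (Ppm1j) to 0.512 (Mamdc2), with adjusted exact permutation p from 0.408 to 0.982.

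The genes most like each of the 6 across the 7 PS2APP;Trem2wt mice were named by Pearson's r of log2 CPM, as a description over mice that share their libraries and depth. They were picked as the highest r among the 17086 tested genes, and over only 7 mice such a pick can give high r by chance. How high r would reach by chance was not tested. Neither the r values nor the known functions of these genes are therefore read as evidence of shared expression. For Mamdc2 these were Fam174a (r = 0.993), Plekhb2 (0.989) and Tbc1d8 (0.987). For Etl4 they were Hspa1b (0.989), Eif2ak3 (0.988), a kinase of the unfolded protein response, and Pigs (0.985). Asb11 was most like Nbl1 (0.985), Fdps (0.972) and the folate enzyme Aldh1l1 (0.969), a marker of astrocytes. Corin was most like Trabd (0.974), Fndc4 (0.972) and Gapdh (0.964), and Tcap most like Wdr25 (0.972), Gm22781 (0.967) and Fam81a (0.961). Ppm1j was most like Parp9 (0.991), the interferon-inducible Ifi204 (0.991) and Atp5b (0.987), an ATP synthase subunit. Hspa1b and Gapdh have near-identical copies in the genome, and their uniquely aligned counts are uncertain.

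Sex did not separate the genes by test. Both PS2APP;Trem2wt males had more Tcap (5.39 and 7.47 nRPKM) than any of the 5 females (1.82 to 4.95 nRPKM), and both had less Ppm1j (0.481 and 0.633 nRPKM) than any female (0.640 to 1.08 nRPKM). In an edgeR fit with genotype and sex, the log2 difference of males minus females was 0.46 (SE 0.49, adjusted p = 0.868) for Tcap and -0.60 (SE 0.36, adjusted p = 0.792) for Ppm1j. It was -0.89 (SE 0.81) for Corin, -0.49 (SE 0.39) for Mamdc2, -0.21 (SE 0.25) for Etl4 and -0.17 (SE 0.95) for Asb11. None of the 6 passed after adjustment, where 0.0234% of all tested genes did. None had an unadjusted edgeR p under 0.05 either, where 1187 of 17086 tested genes did. The test of a genotype difference that depends on sex rested on 1 PS2APP;Trem2ko male. It was nearest to the threshold for Tcap, at -2.26 (SE 0.93, edgeR adjusted p = 0.565), and 0.0176% of all genes passed it.

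The relatives and partners of the 6 genes were then compared between the genotypes. These relatives and partners were listed with earlier results of these data known and are not independent evidence. Of 110 such genes 59 were tested, and 2 were lower and 0 higher in PS2APP;Trem2ko mice (edgeR, adjusted p at or under 0.05; 5 lower and 2 higher at an unadjusted p under 0.05). That is 3.39% lower, against 1.53% of all tested genes. Their median log2 fold change was -0.01, next to 0.00 for all tested genes.

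The families of the 2 secreted or surface proteins gave 1 of these calls. Of 10 tested MAM domain genes none passed, and the nearest was Nrp1, a receptor for semaphorins and vascular endothelial growth factor, at 77.2 ± 16.6 against 56.0 ± 7.60 nRPKM (log2 fold change -0.47, SE 0.13, edgeR adjusted p = 0.0738). Npnt, an integrin-binding matrix protein, was at 15.8 ± 2.14 against 15.1 ± 3.66 nRPKM. Among the transmembrane serine proteases related to Corin, 3 of 16 listed genes were tested. St14 (matriptase) fell from 34.2 ± 8.10 to 20.96 ± 3.82 nRPKM, a log2 fold change of -0.71 (SE 0.14, edgeR adjusted p = 0.0170). Among females alone its edgeR adjusted p was 0.0943. Hpn (hepsin) stood at 4.70 ± 0.460 and 4.97 ± 0.956 nRPKM. The peptides that Corin acts on were near the limit of detection, as Nppa reached at most 5 reads and Nppb at most 3 in any mouse. Of 10 genes of the natriuretic peptide system 5 were tested and none passed, including the protease Furin (7.96 ± 2.21 against 6.23 ± 0.431 nRPKM) and the kinase Prkg1 (0.344 ± 0.102 against 0.287 ± 0.109 nRPKM).

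The family of Asb11 gave the other call. Asb10 fell from 10.2 ± 2.05 to 5.85 ± 1.70 nRPKM (log2 fold change -0.80, SE 0.18, edgeR adjusted p = 0.0312), with overlapping mice. Its call was lost without any one of PS2APP;Trem2wt replicates 1, 2 and 3 or PS2APP;Trem2ko replicates 2, 3 and 6, and among females alone, with log2 fold changes of -0.83 to -0.70 in these fits. The other 8 tested members did not pass. They included Asb2 at 20.7 ± 2.40 against 18.6 ± 1.79 nRPKM and Asb8 at 17.3 ± 1.05 against 16.5 ± 1.71 nRPKM. Asb9 reached at most 5 reads in any mouse. None of 6 ligase partners passed, the most abundant being Eloc (15.9 ± 0.641 against 16.6 ± 1.59 nRPKM) and Rnf7 (16.6 ± 2.07 against 15.0 ± 0.799 nRPKM). None of 18 PPM phosphatases passed either, with log2 fold changes from -0.72 to 0.22. Ppm1g was at 27.8 ± 2.72 against 25.8 ± 1.72 nRPKM, and Ilkap at 15.8 ± 0.977 against 17.2 ± 2.74 nRPKM.

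No other gene of the muscle Z-disc was called lower beside Tcap, but 18 of those listed were too low to be tested. Of 25 such genes 7 were tested and none passed, and the most abundant, the chaperone Cryab, was at 1.41 ± 0.403 against 1.49 ± 0.619 nRPKM. Nebl followed at 0.175 ± 0.209 against 0.133 ± 0.120 nRPKM. Titin (Ttn), the partner that telethonin caps, was at 0.0051 ± 0.0027 against 0.0070 ± 0.0043 nRPKM. The 16 striated muscle markers summed to 11.3 to 13.7 nRPKM in PS2APP;Trem2wt mice and 9.33 to 14.3 nRPKM in PS2APP;Trem2ko mice, led by the troponin Tnni2. Myh6 and Myl1 were at 0 in all mice, and Acta1 reached at most 11 reads. Srcin1, the tested relative of Etl4, was at 0.0661 ± 0.0354 against 0.0724 ± 0.0249 nRPKM (log2 fold change 0.14, SE 0.37, edgeR adjusted p = 0.907).

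**Figure D3:**
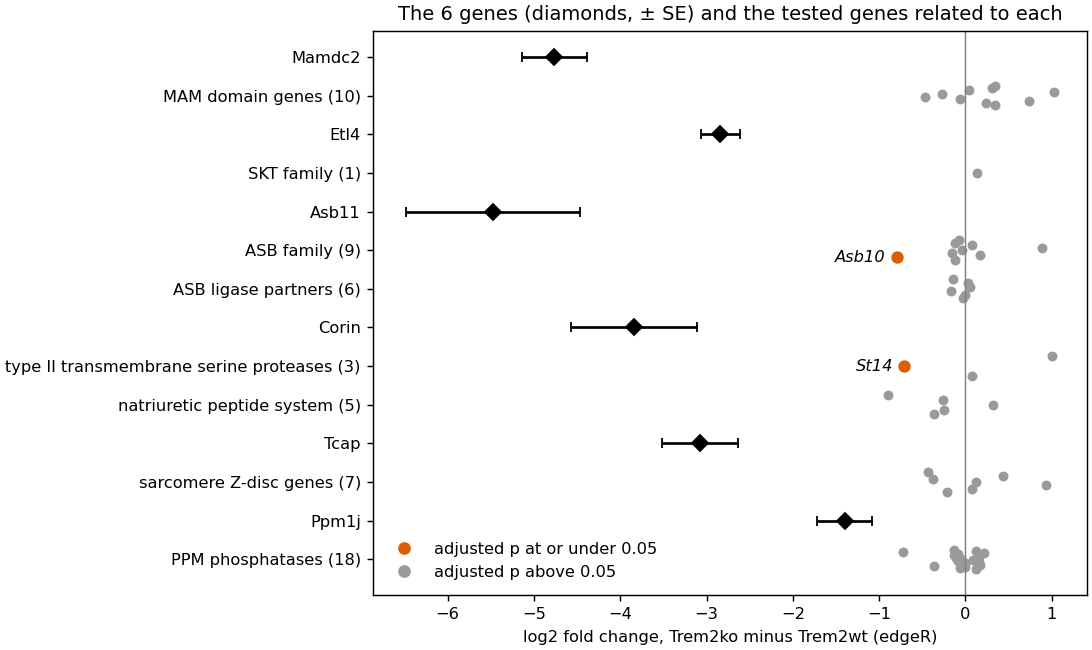
Log2 fold change of PS2APP;Trem2ko minus PS2APP;Trem2wt mice (edgeR, horizontal axis) for each of the 6 genes (diamonds, ± SE) and for the tested genes related to each (dots, number tested in brackets). Orange dots have an adjusted p at or under 0.05. The 6 genes lie between -5.48 and -1.40 and their relatives between -0.89 and 1.03.

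By contrast, the list of disease-associated microglia genes was largely reduced, with 11 of 16 lower, 0 higher and a median log2 fold change of -1.47 (edgeR, 13 lower and 0 higher at an unadjusted p under 0.05). Of all tested genes 1.53% were lower and 0.503% higher. This list was drawn up with earlier results of these data known and is not independent evidence. Mamdc2, Asb11, Corin, Tcap and Etl4 had more negative log2 fold changes than that median and Ppm1j a less negative one.

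Genes next to the 6 on their chromosomes were compared as well. Of 12 tested neighbours, those starting just before and just after each gene, 2 were lower and 0 higher (edgeR, 2 and 0 at an unadjusted p under 0.05 as well). That is 16.7% lower, against 1.53% of all tested genes. Otud1, a deubiquitinase gene lying 249 kb before Etl4, fell from 18.0 ± 3.30 to 12.1 ± 1.27 nRPKM, with no overlap between the genotypes (log2 fold change -0.58, SE 0.11, edgeR adjusted p = 0.0120). Rhoc, a small GTPase gene lying 2.36 kb beyond Ppm1j, fell from 8.53 ± 1.88 to 5.18 ± 0.874 nRPKM (log2 fold change -0.72, SE 0.15, edgeR adjusted p = 0.0190). The other 10 had log2 fold changes between -0.27 and 0.12. They included Piga, 3.08 kb before Asb11, at 1.32 ± 0.214 against 1.37 ± 0.211 nRPKM, and Atp10d, 1.25 kb before Corin, at 1.997 ± 0.587 against 2.02 ± 0.557 nRPKM. Stard3, 2.70 kb before Tcap, was at 78.6 ± 6.54 against 85.4 ± 7.24 nRPKM. Gm13328, the next gene to start after Etl4, lies inside it and was at 0.457 ± 0.135 against 0.446 ± 0.108 nRPKM.

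**Figure D4:**
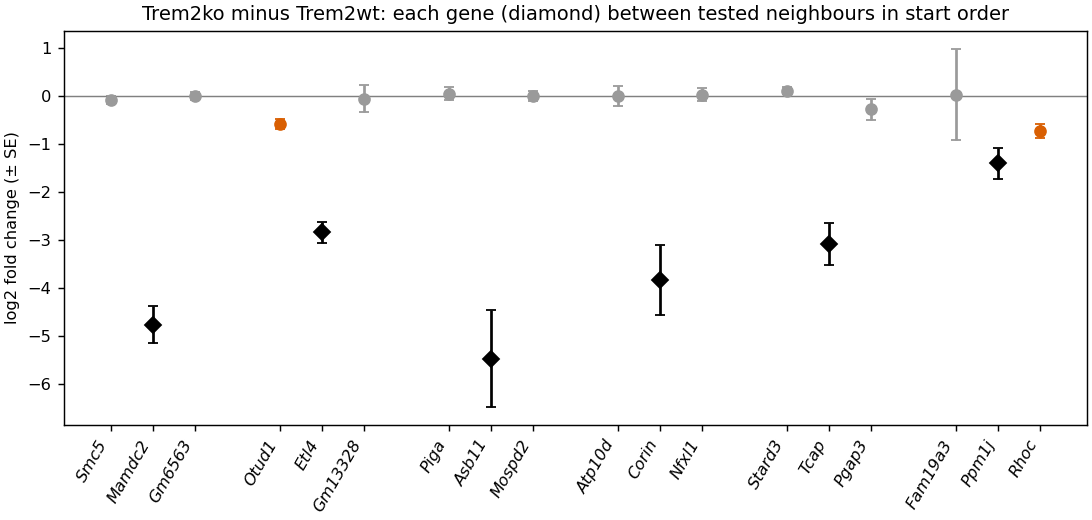
Log2 fold change of PS2APP;Trem2ko minus PS2APP;Trem2wt mice (edgeR, ± SE, vertical axis) for each of the 6 genes (diamonds) between the tested genes that start just before and just after it (Gm13328 starts inside Etl4). Orange neighbours, Otud1 at -0.58 and Rhoc at -0.72, have an adjusted p at or under 0.05, and the grey ones lie between -0.27 and 0.12.

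Promoter sequences of the 6 genes were examined as a description, since their joint reduction follows from how they were picked. RefSeq (GRCm38.p6) gave the 250 bases before the start for 4 of the 6 genes, with 3 start sites for Etl4. These 3 Etl4 windows lie inside the gene span given above. The bases before chr2:19909780, where that span begins, were not examined. The sequences of Asb11, Corin and Ppm1j and the Etl4 window that held a motif are shown 5′ to 3′ on the strand of the gene, with the motifs found in capitals. The windows are Etl4 chr2:20509797-20510046 (plus), Asb11 chrX:164436744-164436993 (plus), Corin chr5:72504541-72504790 (minus) and Ppm1j chr3:104780806-104781055 (plus).
Etl4: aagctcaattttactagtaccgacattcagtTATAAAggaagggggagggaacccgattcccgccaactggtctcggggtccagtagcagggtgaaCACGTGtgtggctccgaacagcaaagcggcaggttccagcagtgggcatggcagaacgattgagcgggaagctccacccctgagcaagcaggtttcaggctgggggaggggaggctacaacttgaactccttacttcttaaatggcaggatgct
Asb11: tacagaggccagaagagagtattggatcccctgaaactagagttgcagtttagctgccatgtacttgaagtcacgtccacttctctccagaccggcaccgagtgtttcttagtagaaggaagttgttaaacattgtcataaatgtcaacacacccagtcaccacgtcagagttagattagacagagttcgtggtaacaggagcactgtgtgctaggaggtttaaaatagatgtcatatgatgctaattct
Corin: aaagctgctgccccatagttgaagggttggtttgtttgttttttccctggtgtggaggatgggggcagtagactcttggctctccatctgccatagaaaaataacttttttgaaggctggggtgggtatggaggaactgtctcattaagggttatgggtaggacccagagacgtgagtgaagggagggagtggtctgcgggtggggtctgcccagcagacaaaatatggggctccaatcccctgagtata
Ppm1j: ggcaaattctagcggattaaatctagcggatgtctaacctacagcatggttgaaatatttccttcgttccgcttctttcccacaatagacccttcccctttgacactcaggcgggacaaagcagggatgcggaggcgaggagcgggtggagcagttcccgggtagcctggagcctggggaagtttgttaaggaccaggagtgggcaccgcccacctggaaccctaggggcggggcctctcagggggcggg
Motifs searched on both strands were a TATA box (TATAAA), an E-box (CACGTG), an AP-1 site (TGANTCA), a PU.1-type ETS site (GAGGAAGT), a MEF2-type core (CTATAAAT), a MyoD-type E-box (CAGCTG) and a CRE (TGACGTCA), and every MEF2-type core holds a TATA box. Of the 6 windows only the one of Etl4 shown held any. It held the letters of a TATA box at 219 to 214 bases and of an E-box of the first kind at 154 to 149 bases before the start. Letters were matched at any position in a window, so neither these matches nor the shares below are shown to be working sites. Among 32817 mouse promoters, 12.4% hold the TATA box, 6.02% the first E-box, 6.75% the AP-1 site, 2.44% the ETS site, 0.875% the MEF2-type core, 13.01% the MyoD-type E-box and 1.55% the CRE. None of the motifs searched was common to the windows of the 4 genes, and other motifs were not searched. Base composition also differed, with 58.4% GC and 12 CpG in Ppm1j, 54.8% and 9 in the Etl4 window shown, 51.2% and 2 in Corin and 43.6% and 5 in Asb11, against a median of 52.4% GC and 6 CpG over all promoters. The other 2 Etl4 windows held 38.4% GC with 1 CpG and 43.2% with 2.

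Markers of other cells were set beside the differences. None of 56 tested markers of border macrophages, monocytes, neutrophils, T and NK cells, B cells, neurons, astrocytes, oligodendrocytes, endothelium, mural cells, fibroblasts or striated muscle passed (edgeR; 1 lower and 1 higher at an unadjusted p under 0.05). Of the 11 microglia markers Cx3cr1 was lower and 10 did not pass. The 6 neutrophil markers summed to 11.6 to 214 nRPKM in PS2APP;Trem2wt mice and 0.245 to 36.7 nRPKM in PS2APP;Trem2ko mice, led by Ngp, while Ly6g and Retnlg were too low to be tested. Their part in the 6 genes' levels was not tested. Without PS2APP;Trem2wt replicate 2, in which those markers were highest, the log2 fold changes were -4.78 for Mamdc2, -2.85 for Etl4, -5.32 for Asb11, -3.87 for Corin, -2.87 for Tcap and -1.43 for Ppm1j.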

How the data were processed

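RNA-Seq was performed on myeloid cells sorted by FACS from 13 PS2APP mice (SMART-seq v4 libraries, single-end reads). Adapter, low-quality and rRNA reads were discarded and reads were aligned with GSNAP to GRCm38, per the submitters' notes. For each mouse the authors deposited raw counts of reads per gene and normalized RPKM (nRPKM), which are RPKM values scaled by size factors. Gene names (52403 of 52636) and positions came from GENCODE M21.

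Counts were filtered by edgeR's filterByExpr, scaled by TMM and compared by edgeR's quasi-likelihood test (edgeR 4.0.16, R 4.3.3) on genotype without covariates, with Benjamini-Hochberg adjustment over 17086 genes and a threshold of 0.05. Sex was tested in a fit with genotype. Alternatives were voom with limma 3.58.1, DESeq2 1.42.0, RLE size factors, other filters (none, or at least 10 counts in 6 mice), sex added to the model, the females alone, limma on nRPKM (log2 after adding 0.1 or 1), and leaving out each mouse in turn. The edgeR, voom and DESeq2 fits were tested on simulated data. Correlations used log2 CPM with a prior count of 2, ranks from scipy 1.17.1, and exact permutation over all orders of the mice (numpy 2.4.6). Outside the 6 genes, named genes were those past the threshold in each family list and otherwise its 2 most abundant tested genes, the tested neighbours by start position, the 3 most alike genes and the top gene of a marker list where its level is described. Genes named beyond that rule (Asb9, Nppa, Nppb, Ttn, Myh6, Myl1, Acta1, Ly6g, Retnlg) were chosen after their values were seen. One planned microglia marker is not reported here.

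The 6 genes and all lists were chosen with earlier results of these data known. Each library is 1 mouse, grouped by its labelled genotype. The 36 pairs of same-genotype libraries differed beyond sampling noise (lowest chi-square per degree of freedom 18.1). Of the 50-base words of the 6 genes' transcripts, 1.16% of those of Corin and 0.680% of those of Etl4 also occur in another gene, and none of the other 4 genes' words do. Floors of 3 counts cover counting error only, as reads carried no molecular identifiers.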

Additional observations from a re-analysis of the deposited data

Results flagged for a closer look

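Each of the 6 genes in each genotype made 12 groups of mice. In 11 of them, 2 held a mouse whose gap in nRPKM to the nearest other mouse exceeded Dixon's 95% critical value. Chance gives about 1 in 20 for independent, normally distributed values. These groups share mice and some rest on few reads, so that rate is only a rough guide. In the remaining group, Asb11 in PS2APP;Trem2ko mice, all mice but 1 were at 0, so any read would have exceeded that value and the chance rate does not apply. Mamdc2 in PS2APP;Trem2wt replicate 3 was 40.5 nRPKM, 1.97 times the next mouse at 20.6 nRPKM. Asb11 in PS2APP;Trem2ko replicate 2 was 0.0966 nRPKM from 14 reads, while the other 5 mice of that genotype were at 0. Corin in PS2APP;Trem2ko replicate 1 was 0.0610 nRPKM from 54 reads, 3.41 times the next mouse at 0.0179 nRPKM, and that library was the deepest of all at 120569609 counted reads.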

How the results depend on the processing

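No log2 fold change of the 6 genes changed sign in any of 22 alternative fits. The median of the 6 was -3.46 and moved to -2.43 with limma on log2(nRPKM + 0.1) and -0.78 with limma on log2(nRPKM + 1), since a pseudocount shrinks the differences of low genes. With single mice left out it lay between -4.15 and -3.24. The genes without overlap between the genotypes numbered 5 or 6 (females only: 6). The count of lower relatives, 2 by edgeR, was 3 with DESeq2 and 0 with females only, where 5 females remain in each genotype and 7 were lower at an unadjusted p under 0.05. With single mice left out it was 1 to 2. St14 passed in 21 of 22 alternatives (not with females only, adjusted p = 0.0943; lowest 9.05e-05). Asb10 passed in 15 of 22 (adjusted p from 0.000664 to 0.0798) and in 7 of the 13 that left out a mouse. Otud1 and Rhoc passed in 22 of 22, with adjusted p up to 0.0329 and 0.0496. The count of the 6 genes called for sex was 0 in all 20 alternatives. The median r of pairs in PS2APP;Trem2wt mice was 0.637 and ranged from 0.087 (without replicate 3) to 0.750 with single mice left out. Relations with an adjusted p at or under 0.05 numbered 0, and were 3 on log2(nRPKM + 1) values and 0 to 2 with single mice left out (2 without PS2APP;Trem2wt replicate 1, 1 without replicate 5). No paired analysis was possible because the labels carry no replicate numbers: those used here were given in accession order. Per the study's methods, a mouse of each genotype was generally handled as a pair through to the sort, but the labels do not say which mice form a pair, so all fits ignore that pairing. Depth limits Asb11 and Corin most, since in PS2APP;Trem2ko mice they rest on 14 and 73 reads in all.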
